A study of Drosophila melanogaster with 8 samples.

Results

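The regions described here are the 10 kb bins of the Drosophila melanogaster arms 2L, 3L and 3R in which testes of comr mutant males carried a lower H3K27me3 score than testes of can mutant males. A bin was selected on the measured difference itself, as one whose mean score in comr lay at least 0.4 below its mean score in can. This gave 270 of 7058 bins, or 3.83%, with 76 on 2L, 93 on 3L and 101 on 3R. They add up to 2.7 Mb. The values that chose the bins are given as a description and carry no test.

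H3K27me3 is the trimethylated form of lysine 27 of histone H3. It is written by Polycomb repressive complex 2 and spread over broad domains of silent developmental genes, where Polycomb repressive complex 1 binds it. Spermatocytes switch on a large testis-specific gene programme just before meiosis. Much of this programme depends on the testis meiotic arrest complex, tMAC, and the product of comr (cookie monster) belongs to that complex. The gene can (cannonball) encodes a testis-specific relative of a TBP-associated factor, and such factors are known to counteract Polycomb silencing at spermatid differentiation genes. Germ cells of either mutant stop as mature primary spermatocytes.

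Chromatin came from adult testes of 3-day-old males homozygous for comr or for can, raised at 23 °C, with 400 testes as starting material per the labels. The study holds 8 samples in 4 groups of 2: H3K27me3 in comr, input in comr, H3K27me3 in can and input in can. The labels name no allele. All males carried a meiotic arrest mutation, and no wild-type profile was analysed here. Whole testes mix germ cells with somatic cells, so fewer cells of a type that carries the mark and less mark per cell cannot be told apart.

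Each genotype had 1 deposited profile of H3K27me3 over input for its 2 replicates. There was therefore no spread between replicates, no test and no p-value for any difference below. Scores are signed and have no stated log base, so differences are given and never folds. Both profiles hold the same sorted values, which fixes their overall distributions to be equal. The depth behind the scores is unknown. Errors are SDs over bins, or standard errors over the 1 kb windows of a bin within a profile.

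The bins higher in can were one tail of a nearly symmetric distribution. Over all 7058 bins comr minus can averaged 0.00173 with an SD of 0.227. At the other end, 253 bins (3.58%) had a score in comr at least 0.4 above that in can. The tail toward can reached further: its most extreme bin stood at -1.22, whereas the most extreme bin toward comr stood at 0.773. Of the 270 bins, 110 had a difference of -0.5 or less, 34 of -0.6 or less and 11 of -0.7 or less. The bins just inside the limit, at -0.4 and -0.401, and those just outside it, at -0.399, had almost equal values, so the limit separates no distinct class. There were 105 bins between -0.45 and -0.4 and 164 between -0.4 and -0.35.

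**Figure D1:**
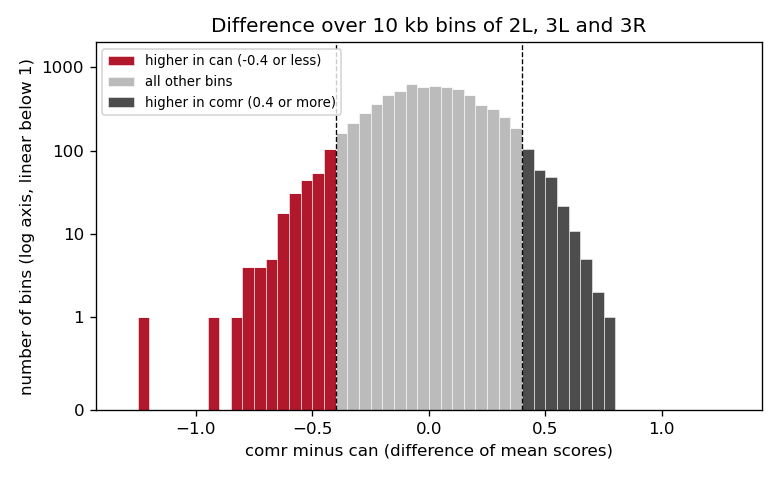
Number of 10 kb bins of 2L, 3L and 3R (vertical axis, log above 1) by comr minus can of the mean score (horizontal axis, steps of 0.05). The 270 bins at -0.4 or less are red and the 253 bins at 0.4 or more are dark grey, and the dashed lines mark both limits.

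The share of such bins was similar on the autosomal arms, at 3.59% of the bins of 2L, 4.08% of 3L and 3.79% of 3R. Bins higher in comr made up 4.26% of 2L, 2.89% of 3L and 3.64% of 3R. On X, which was not part of the selection, 268 of 2036 bins (13.2%) lay at -0.4 or less. Differences were also more widely spread there, with an SD of 0.303 on X against 0.228 on 2L, 0.224 on 3L and 0.229 on 3R.

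The 270 bins were mostly low in comr and only moderately high in can. Their mean score was -0.362 ± 0.235 in comr and 0.138 ± 0.223 in can (SD, n = 270 bins). The other 6788 bins averaged 0.0219 ± 0.290 in comr and 0.000167 ± 0.245 in can. Set against the mean of all bins, the 270 thus lay 0.370 lower in comr and 0.132 higher in can. Of the 270, 192 were farther from that mean in comr than in can. That count was drawn from the selecting values and was not made for other bins. The score was below 0 in comr and above 0 in can in 177 bins (65.6%, against 14.2% of all bins), a pattern that the rule itself favours. It was below 0 in both mutants in 75 (27.8%, against 36.7%) and above 0 in both in 18 (6.67%, against 35.3%). In comr, 132 of the 270 fell among the lowest 10% of all bins. In can, 54 fell among the highest 10%. Both conditions were met by 3 bins. A bin that meets both has a difference past the limit, so none could lie outside the set. The rule itself also favours the counts of 132 and 54. The bins higher in comr showed the same asymmetry with the sign turned: they averaged 0.346 ± 0.267 in comr and -0.137 ± 0.270 in can (SD, n = 253 bins). The wider spread of bin means in comr (SD 0.298) than in can (SD 0.245) over all bins accompanies both patterns, and its part in them was not tested.

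**Figure D2:**
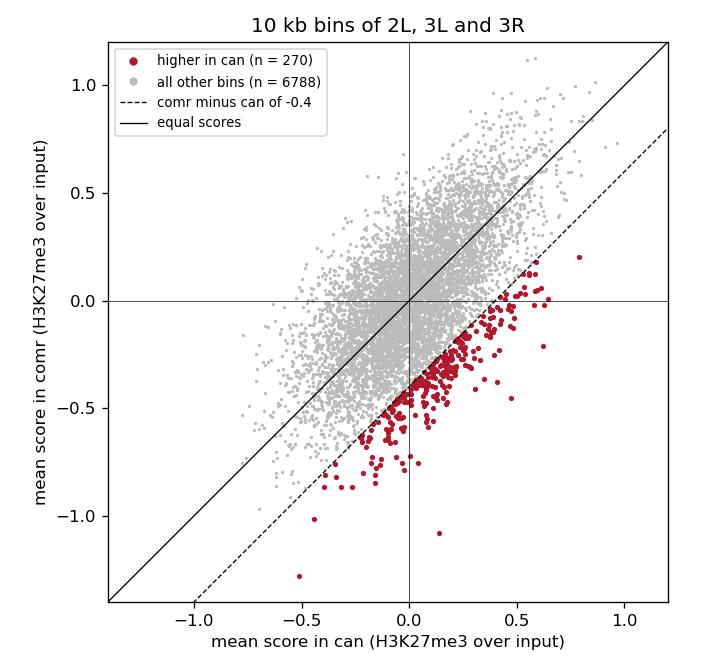
Mean score of each 10 kb bin of 2L, 3L and 3R in comr (vertical axis) against can (horizontal axis), with the 270 bins higher in can in red and the other 6788 in grey. Most red points lie below 0 in comr, and 195 of the 270 (72.2%) lie above 0 in can, against 49.5% of all bins.

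Single bins show how these scores were made up. The largest difference lay on 3L from 23060001 to 23070000 (dm3), with -1.08 in comr and 0.138 in can, a difference of -1.22 ± 0.419 (standard error over 9 windows). Its windows ran from -2.23 to -0.12 in comr and from -1.51 to 1.93 in can, and 8 of the 9 were lower in comr. The window with the widest gap scored -1.71 in comr and 1.93 in can. Leaving out that window brought the bin to -0.914.

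The bin of 3R from 27860001 to 27870000 was more even. It scored -0.21 in comr and 0.623 in can, a difference of -0.833 ± 0.167. All 10 windows were lower in comr, where they ran from -0.99 to 0.4, and they ran from -0.09 to 1.11 in can. Near it, the bin from 27880001 to 27890000 scored -0.45 in comr and 0.471 in can. A single window there, at -1.33 in comr and 2.4 in can, took the difference to -0.921, and without it the difference was -0.609.

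The highest score in can among the 270 was 0.79, on 2L from 5010001 to 5020000, where comr scored 0.201. This bin belonged to the few that were above 0 in both mutants, and all its 10 windows were lower in comr. In can its windows ran from 0.53 to 1.57, and in comr from -0.57 to 0.81. All windows were above 0 in can and some were below 0 in comr, in a bin picked for its high score in can. Other bins high in can were 3L from 6720001 (0.008 in comr and 0.643 in can), 2L from 10730001 (-0.02 in comr and 0.626 in can) and 3L from 1750001 (0.06 in comr and 0.61 in can).

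The lowest score in comr was -1.28, on 2L from 10260001 to 10270000, where can also stood low, at -0.511. One window scored -4.65 in comr and -1.44 in can, and without it the difference of -0.768 came to -0.497. Also low in both mutants were the 2L bins from 22130001 (-1.02 in comr and -0.444 in can) and from 22470001 (-0.867 in comr and -0.266 in can), and the 3R bin from 4640001 (-0.865 in comr and -0.316 in can). These bins were low in both mutants and lower in comr, and none was above the mean of all bins in can.

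The remaining bins among the 10 largest differences were 2L from 5260001 (-0.756 in comr and 0.039 in can), 3R from 27840001 (-0.378 and 0.409, in the same order), 3L from 23310001 (-0.784 and -0.0233), 3L from 23140001 (-0.723 and 0.0044), 2L from 22810001 (-0.752 and -0.0333) and 3L from 2500001 (-0.409 and 0.307). Their differences were -0.716 to -0.795. Of the 10, 3 lay in the outermost 60 kb of 3R and 3 between 23.06 and 23.32 Mb of 3L.

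Within the 270 bins, differences between windows were uneven. The SD of the window differences averaged 0.628 within these bins and 0.574 within the other 6788. Among the latter, it averaged 0.616 within the 253 bins higher in comr. On average 7.77 windows per bin were lower in comr, against 4.89 over all bins, a contrast that the selection by itself favours. All windows were lower in 18 bins. In 43 bins at least one window had a difference of -2 or less. Both counts were drawn from the selecting windows and are not given here for other bins, so they mark no trait of the set. Leaving out from every bin its window with the largest difference brought the mean difference over the 270 bins, -0.50 with all windows, to -0.377, and 97 of them still reached -0.4. With rows starting at each kb, whose windows overlap the ones used for selection and share reads with them, all 270 differences were below 0 and 176 still reached -0.4, with a mean of -0.446.

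Windows without a deposited score were more frequent in these bins. Of the 270, 31 (11.5%) held fewer than 10 windows, against 298 of the other 6788 (4.39%) and 21 of the 253 bins higher in comr (8.30%). The part of such missing windows in the differences was not tested. Required to have all 10 windows, 239 bins remained of 6729 (3.55%).

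Most bins of the set had no adjacent bin in it. Of the 270, 237 stood alone and 33 (12.2%) lay in 15 runs of adjacent bins: 13 pairs, 1 run of 3 and 1 run of 4. Over all bins, 6.91% had a bin of the set next to them. The bins higher in comr had 28 of 253 in 14 runs, all of them pairs. The run of 4, on 3R from 27860001 to 27900000 (40 kb), averaged -0.269 in comr and 0.428 in can. The run of 3, on 3R from 24960001 to 24990000 (30 kb), averaged -0.200 in comr and 0.270 in can, and a further bin of the set, from 24930001, lay close by with -0.228 in comr and 0.418 in can.

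Of the pairs, 2L from 5260001 to 5280000 had the largest mean difference, at -0.624, with -0.508 in comr and 0.116 in can. The pair on 3R from 27560001 to 27580000 was near 0 in comr, at -0.0175, and at 0.536 in can. That on 3L from 1650001 to 1670000 scored 0.018 in comr and 0.506 in can. In contrast, the pair on 3L from 16040001 to 16060000 was low in both mutants, at -0.647 in comr and -0.221 in can, and the one from 16120001 to 16140000 stood at -0.537 in comr and -0.0045 in can. The other pairs had mean differences of -0.414 to -0.531.

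Bins of the set were nonetheless close to each other more often than to bins of the opposite kind. Another bin higher in can lay within 2 bins for 68 of the 270 (25.2%), and within 5 bins for 127 (47.0%). For comparison, 13.1% of all bins had such a bin within 2 bins and 28.1% within 5. A bin higher in comr lay within 2 bins of 18 of the 270 (6.67%), against 12.6% of all bins, and within 5 bins of 50 (18.5%), against 27.4%.

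Next to the selected bins the difference was small. The adjacent bins outside the set averaged -0.130 in comr and -0.0591 in can, a difference of -0.0705 ± 0.00932 (standard error over 455 bins, which are not replicates), and 300 of the 455 (65.9%) were lower in comr. At 2 bins away the difference was -0.0439, at 3 bins -0.0200 and at 5 bins -0.0001. It was -0.0103 at 9 bins and 0.0086 at 10 bins, and over all bins outside the set it was 0.0217, with 47.6% lower in comr. Around the bins within 3 Mb of the telomere-side ends it was -0.119 next to them, -0.0401 at 5 bins and -0.0485 at 10 bins, against -0.0046 over all bins outside the set in that zone. The difference between the mutants thus dropped sharply at the borders of the selected bins. In the 1 kb windows just inside, it averaged -0.529 at one border and -0.551 at the other, and in the windows just outside, some of which lie in other bins of the set, -0.118 and -0.182. Selection on the mean of a bin by itself makes a step at these borders.

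**Figure D3:**
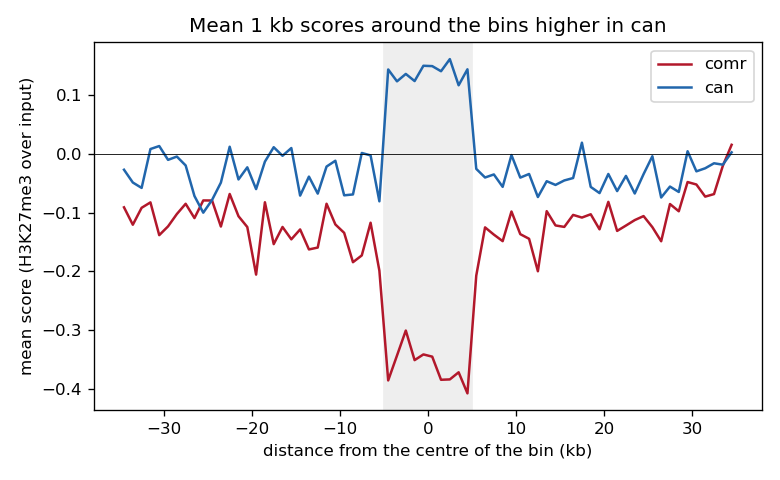
Mean score of 1 kb windows (vertical axis) in comr and can by distance in kb from the centre of the 270 bins (horizontal axis), with the selected bins shaded. Inside, comr averages near -0.36 and can near 0.14; outside, where windows of other selected bins are included, comr lies below can at 58 of 60 distances.

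The selection by itself sets comr below and can above the surrounding bins, so the following values describe the set and support nothing. For 265 bins at least 4 bins outside the set lay within 5 bins on either side, and these surroundings averaged -0.0787 in comr and -0.0441 in can. The selected bins lay 0.178 ± 0.184 above their surroundings in can (SD, n = 265 bins), and their departure in comr was -0.284 ± 0.202. The score in comr was below that of the surroundings in 248 of the 265, the score in can was above it in 223, and both held in 206. The 253 bins higher in comr had the reverse, with a mean departure from their surroundings of 0.254 in comr and -0.197 in can.

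Over the 3 arms together, the bins higher in can were more frequent near the outer and inner ends than between them. Drosophila chromosome ends carry subtelomeric repeats that are known to bind Polycomb group proteins, and the inner ends border pericentric heterochromatin, which is marked mainly by H3K9 methylation. Neither feature was mapped onto the bins, and a link to them was not tested. Within 1 Mb of the telomere-side ends, 28 of 282 bins (9.93%) belonged to the set, and only 2 bins (0.709%) were higher in comr. Within 1 Mb of the centromere-side ends, 18 of 231 bins (7.79%) belonged to it, against 7 (3.03%) higher in comr. By arm these were 6 against 5 of 76 bins on 2L, 4 against 2 of 65 on 3L and 8 against 0 of 90 on 3R, so most of this contrast came from 3R. Between these zones, beyond 3 Mb from the telomere side and 1 Mb from the centromere side, the shares were 3.35% of 5973 bins and 3.77% higher in comr. By arm, the outermost Mb held 7 of 92 bins on 2L (7.61%), 7 of 96 on 3L (7.29%) and 14 of 94 on 3R (14.9%). Other Mb reached as much on 2L, with 8.16% between 5 and 6 Mb from that end, and on 3L, with 7.45% between 9 and 10 Mb and 13.5% between 23 and 24 Mb. On 3R no other Mb counted from that end held more than 8.75%, and the 1 Mb at the centromere-side end held 8.89%. Within 3 Mb of the telomere side the share was 3.19% on 2L, 7.07% on 3L and 7.96% on 3R.

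**Figure D4:**
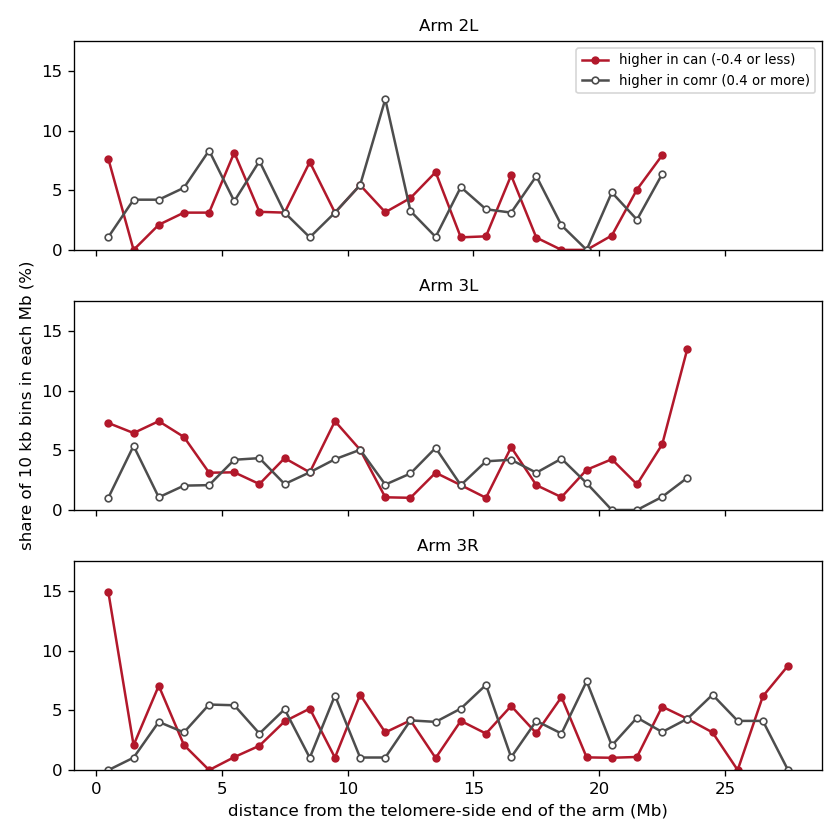
Share of 10 kb bins in each Mb (vertical axis, %) that were higher in can by at least 0.4 (filled red) or higher in comr by at least 0.4 (open grey), by distance in Mb from the telomere-side end of each arm (horizontal axis). The first Mb holds 14.9% on 3R and more than 7% on 2L and 3L, and the share on 3L is again high near the centromere side.

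These zones differed in how the bins were made up. The 52 bins within 3 Mb of the telomere side averaged -0.203 ± 0.182 in comr and 0.331 ± 0.168 in can (SD), and 51 of them were above 0 in can. The 18 bins within 1 Mb of the centromere side averaged -0.528 ± 0.245 in comr and -0.0465 ± 0.210 in can, and 6 of them were above 0 in can. The 200 bins in between averaged -0.389 ± 0.226 in comr and 0.104 ± 0.205 in can, and 138 were above 0 in can. The levels follow those of the zones themselves: bins outside the set averaged 0.162 in comr and 0.167 in can within 3 Mb of the telomere side, and -0.0908 in comr and -0.108 in can within 1 Mb of the centromere side. Bins with fewer than 10 windows made up 27.8% of the 18 bins at the centromere side and 20.2% of the other bins there, and 9.62% and 4.61%, in the same order, within 3 Mb of the telomere side.

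The densest stretch was the last Mb of 3R. Its 14 bins higher in can averaged -0.202 ± 0.165 in comr and 0.398 ± 0.141 in can (SD). All 14 were above 0 in can, as were most of the other 80 bins of this Mb. No bin there was higher in comr by 0.4. The other 80 bins of this Mb shared the direction in a weaker form, with 0.178 in comr and 0.271 in can, and 55 of the 80 were lower in comr. In the outermost 60 kb, 5 of 6 bins belonged to the set. Their scores were 0.01 in comr and 0.446 in can for the outermost, from 27890001, and -0.424 in comr and 0.173 in can for the bin from 27870001. The bin between the 5, from 27850001, had -0.172 in comr and 0.195 in can. Further inward the bins from 27670001 (-0.276 in comr and 0.33 in can), 27730001 (-0.127 in comr and 0.483 in can) and 27600001 (-0.306 in comr and 0.284 in can) stood among others that did not reach the limit. Neighbouring bins could go the other way, as from 27770001, with 0.106 in comr and -0.166 in can.

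**Figure D5:**
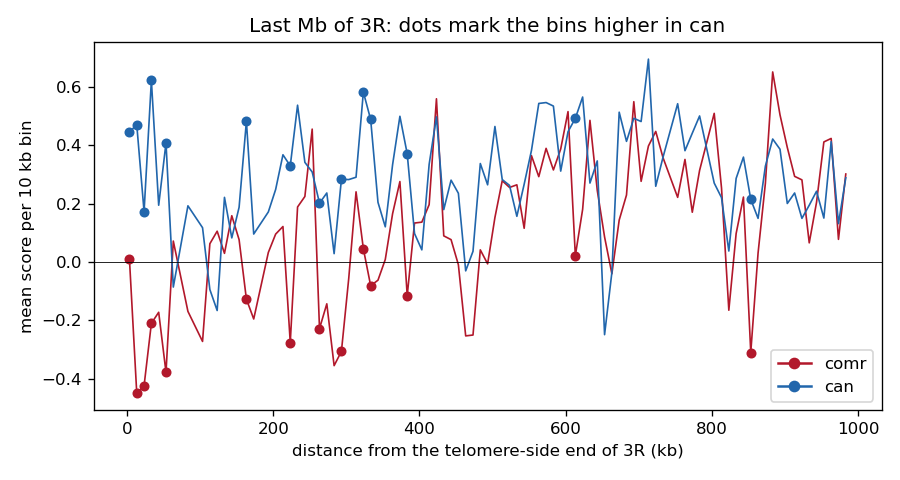
Mean score of each 10 kb bin (vertical axis) in comr and can by distance in kb from the telomere-side end of 3R (horizontal axis), with dots on the 14 bins higher in can by at least 0.4. In the outermost bins can lies at 0.173 to 0.623 where dots mark it, and comr at -0.45 to 0.01.

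At the telomere-side ends of the left arms the bins were more scattered. On 2L all 7 within the first Mb lay between 0.14 and 0.48 Mb, and they averaged -0.394 in comr and 0.128 in can. On 3L the 20 bins within 3 Mb averaged -0.150 in comr and 0.375 in can, and all 20 were above 0 in can. The other 263 bins of that zone averaged 0.136 in comr and 0.144 in can. The most extreme of the 20, from 2500001 to 2510000, was lower in comr in all 10 windows.

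A second dense stretch lay on 3L, where 11 of the 75 bins between 23 and 24 Mb (14.7%) belonged to the set and 2 were higher in comr. In these 11 the score in comr ran from -1.08 to -0.189 and that in can from -0.228 to 0.238. The selection by itself sets these ranges apart. Over all 75 bins of this Mb the mean score was -0.159 in comr and -0.0904 in can. The first Mb of 3R, at its centromere side, held 8 such bins of 90 (8.89%), and none was higher in comr. The 8 averaged -0.521 in comr and -0.0565 in can, and 7 of them were below 0 in both mutants.

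Along the arms as a whole the bins were spread thinly. Of 76 regions of 1 Mb, 5 held none of them, 56 held 1 to 5 and 15 held 6 or more, with a median of 3. Only the 2 stretches just described, 23 to 24 Mb of 3L and 27 to 28 Mb of 3R, held 10 or more, with 25 bins together. Regions without any were 1 to 2 Mb and 18 to 20 Mb of 2L, 24 to 25 Mb of 3L, of which 32 bins had scores, and 23 to 24 Mb of 3R.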

How the data were processed

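For each genotype the authors deposited 1 track with a score at every 100 bp. Per the file headers, a score is the H3K27me3 signal over its input within 1000 bp, and QN marks the normalization. The submitters' processing notes name the build dm3. No source used here gives the aligner, the filters or how the 2 replicates entered the track. Rows starting 500 bp into each kb, taken as 1 kb windows, were averaged in 10 kb bins with at least 8 windows; 438 bins with fewer were left out. Sums were compared in hundredths of a score, which places 1 bin at exactly -0.4 in the set. Scripts (Python 3.11.15, numpy 2.4.6, pandas 2.3.3, matplotlib 3.10.9) were tested on simulated data. Bins named were the 10 largest differences, the 5 highest in can, the 5 lowest in comr, the longest runs and those at the limit; the others named in the dense stretches were chosen after their values were seen. The members and lists were chosen with earlier results of these data known. The gene table at hand follows Release 6, so no gene was named and the 5 planned gene lists were not used. Arm ends are the first and last deposited rows. No test was possible with 1 profile per genotype.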

Additional observations from a re-analysis of the deposited data

How the results depend on the processing

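No paired analysis was possible because each genotype had 1 deposited profile for its 2 replicates, and no replicate could be left out. Centring on the local median, matching over the 3 arms and the settings on the telomere-side ends were added after the data were seen. The 270 bins became 655 at a limit of -0.3, 110 at -0.5, 124 without the window with the largest difference and 39 (of 3485) with bins of 20 kb. Under the other settings they numbered 218 to 369, with 262 for rows starting at each kb (176 of the 270 among them), 369 for the median of the windows (185 among them), 272 centred on the median of bins within 500 kb (209 among them) and 263 with scores matched over the 3 arms alone (260 among them). Bins in runs, 33, numbered 67 with the median, 3 without the largest window, 9 with bins of 20 kb, 191 at -0.3, 9 at -0.5 and 18 without the 3 Mb at the telomere-side ends. Mean scores in comr and can kept their sign under the 5 alternatives computed for them (rows starting at each kb, all rows, the median, without the largest window and without the telomere-side ends), from -0.40 to -0.302 in comr and from 0.0750 to 0.122 in can. The difference of adjacent bins, -0.0705, was -0.0834 with rows starting at each kb, -0.0440 without the largest window, -0.0439 at 2 bins away and -0.0600 without the telomere-side ends. The share of the 270 within 3 Mb of those ends, 19.3% against 12.1% of all bins, was 10.4% against 4.0% within 1 Mb and 25.6% against 20.2% within 5 Mb. Of 68 recomputed differences of the 17 bins named by the rule, 11 moved by more than a standard error and 0 changed sign. The recomputed values share windows or reads with the main ones, and these bins were picked as extreme, so an unchanged sign supports nothing. Apart from what each setting changes by construction, the cause was not tested. Unknown depth and the missing replicates limit all of these values.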

Other observations

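Chromosome 4, the small dot chromosome, was not part of the selection. By the same limit 19 of its 119 bins lay at -0.4 or less and 1 lay at 0.4 or more, and comr minus can averaged -0.186 over its bins. X held 268 such bins and 147 (7.22%) in the other direction, with a mean difference of -0.0543. On the arms used here the mean difference was 0.006 on 2L, -0.0044 on 3L and 0.0036 on 3R, and 2R was not analysed here. These values describe 1 profile per genotype and were not tested.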
